A study of Mus musculus with 2 samples.

Results

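Regulatory T cells (Tregs) keep immune responses in check and depend on the transcription factor Foxp3. Among the Tregs of the spleen, 227 cells carried messenger RNA for 1 or more of Ccr2, Ccr3, Itgae and Gzmb and none for Klrg1, a receptor of terminally differentiated lymphocytes. They were chosen from the library of Tregs sorted as PPARg-negative by 3 conditions: 10% or less of the cell's unique molecular identifiers (UMIs, counted mRNA molecules) from mitochondrial genes, 1 or more UMIs summed over the 4 genes, and 0 Klrg1 UMIs. The 4 genes are called the gate here, and the 227 cells gate-positive cells. They were 227 of the 2633 kept cells of their library and of the 4252 kept cells, from 4894 barcodes, in the series. The working label of effector Tregs rests on these gate genes, and the values below show where other effector genes went with them and where they did not.

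Both libraries came from spleens of male B6 Pparg-Tdt.Foxp3-Gfp mice, 8 weeks of age, in which a red reporter follows Pparg and a green reporter follows Foxp3. Every group compared here therefore carried both reporter alleles. One library held Tregs labelled PPARg-negative and the other Tregs labelled PPARg-low, each from 2 or 3 pooled mice. Each label is thus 1 library with no replicate, so intervals cover counting error only and no p-value was computed. Where the 2 libraries are compared, the sort, the library and the pool of mice cannot be told apart. Pparg itself had 0 UMIs in the gate-positive cells, and 0 of the 210 cells deep enough to be thinned to 750 UMIs allows a share of up to 1.43% with a Pparg UMI. That limit is on cells with a UMI and not on cells expressing the gene.

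Effector Tregs are antigen-experienced cells that leave the resting program of lymphoid recirculation, gain tissue-homing receptors and adhesion molecules, and make suppressive and cytotoxic effector proteins. Ccr2 encodes the receptor for the monocyte chemoattractant CCL2, and Ccr3 the eotaxin receptor. Itgae encodes the alpha E integrin chain (CD103), which pairs with the beta 7 chain and binds E-cadherin on epithelial cells. Gzmb encodes granzyme B, a serine protease of cytotoxic granules.

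The gate-positive cells held 439370 UMIs, with a median of 1523 UMIs and 824 genes per cell. The other 2265 kept Klrg1-zero cells of the library, called gate-negative, had medians of 2235 UMIs and 954 genes. T cell marker UMIs were present in 227 of 227 gate-positive cells. Dendritic cell markers (7 genes) and granulocyte and mast cell markers (8 genes) were all at 0 UMIs. Of 9 monocyte and macrophage markers, 2 were seen, with 106 of the 107 UMIs from Cst3 and 0 from Lyz2, Csf1r, Cd14 and Adgre1. B cell markers gave 17 UMIs, of which 16 were Cd79b, with Ms4a1 and Ebf1 at 0, and natural killer markers gave 2 UMIs, with Ncr1 at 0. CD8 and gamma delta T cell markers gave 30 UMIs in 20 cells (8.81%), against 8.04% of gate-negative cells, and 1 gate-positive cell had 7 of them. Helper T cell markers gave 30 UMIs in 29 cells, with Il4 and Il17a at 0. A Foxp3 UMI was found in 10 gate-positive cells (4.41%) and in 5.52% of gate-negative cells, so the transcript was sparse in both. The libraries shared 5 barcode sequences, 1 of them in a gate-positive cell, and the doublet caller marked 2 gate-positive cells.

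Ccr2 led the gate. It had 249 UMIs in 132 of the 227 cells (58.1%, exact Clopper-Pearson 95% interval 51.4 to 64.6%), and no cell had more than 6. Itgae had 84 UMIs in 68 cells (30%, 24.1 to 36.4%). Gzmb had 192 UMIs in 56 cells (24.7%, 19.2 to 30.8%), and Ccr3 had 31 UMIs in 22 cells (9.69%, 6.17 to 14.3%). Gzmb was the most unevenly spread: 59.9% of its UMIs lay in 5 cells and 1 cell held 31, whereas 5 cells held 10% of the Ccr2 UMIs. In mm10 with the GENCODE M21 annotation, all 4 are protein-coding genes. Ccr2 lies on chromosome 9 (124101950 to 124113557) and Ccr3 near it on the same chromosome (124021972 to 124031689), both on the plus strand. Itgae lies on chromosome 11 (73090583 to 73147446, plus strand) and Gzmb on chromosome 14 (56258838 to 56262260, minus strand). These values chose the cells and are a description.

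Most gate-positive cells passed the rule narrowly. In 132 cells the rule was met by 1 UMI, in 44 by 2 and in 51 by 3 or more, up to 36 in 1 cell. A single gate gene was seen in 188 cells, 2 genes in 27, 3 genes in 12 and all 4 in 0. On the other side of the rule, 79 kept cells with a gate UMI were left out for a Klrg1 UMI, 28 of them for exactly 1. A mitochondrial share between 9 and 10% was found in 10 gate-positive cells, and 6 cells with a gate UMI and no Klrg1 UMI lay between 10 and 11%. A gate UMI was present in 79 of the 141 Klrg1-positive cells (56%, 47.4 to 64.4%) and in 227 of 2492 Klrg1-zero cells (9.11%, 8.01 to 10.3%). The Klrg1 condition thus set aside the cells in which the gate genes were most frequent. Apart from 1 gate-negative cell with 55 B cell marker UMIs, no cell type known to lack the 4 genes was found in the library. The level of free RNA behind a single UMI could therefore not be measured.

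Each gate gene was found more often in cells that carried another gate gene than in cells that did not. To compare cells of unlike depth, each Klrg1-zero cell was thinned to 750 UMIs, which left out 17 gate-positive and 210 gate-negative cells. At that depth Ccr2 was found in 9 of 14 cells with a Ccr3 UMI (64.3%, 35.1 to 87.2%) and in 3.11% (2.43 to 3.91%) of 2251 cells without one. Ccr2 was found in 26.7% (12.3 to 45.9%) of 30 cells with an Itgae UMI against 3.18% of those without. For Gzmb the share with Ccr2 was 24.1% (10.3 to 43.5%) of 29 cells against 3.22%. Itgae was found in 10.3% (2.19 to 27.4%) of the Gzmb cells and in 1.21% (0.797 to 1.75%) of the others. Each of the 6 pairs of genes went the same way, with intervals that did not overlap, in the plot of joint detection. Among cells with under 20% of UMIs from ribosomal protein genes, the shares moved closer: Ccr2 was in 36.4% (17.2 to 59.3%) of Itgae cells and 17.5% (13.4 to 22.1%) of the others. In that class the pair of Ccr2 and Ccr3 stayed apart, at 69.2% (38.6 to 90.9%) against 16.7% (12.8 to 21.2%), while the intervals of the other 5 pairs overlapped.

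**Figure D1:**
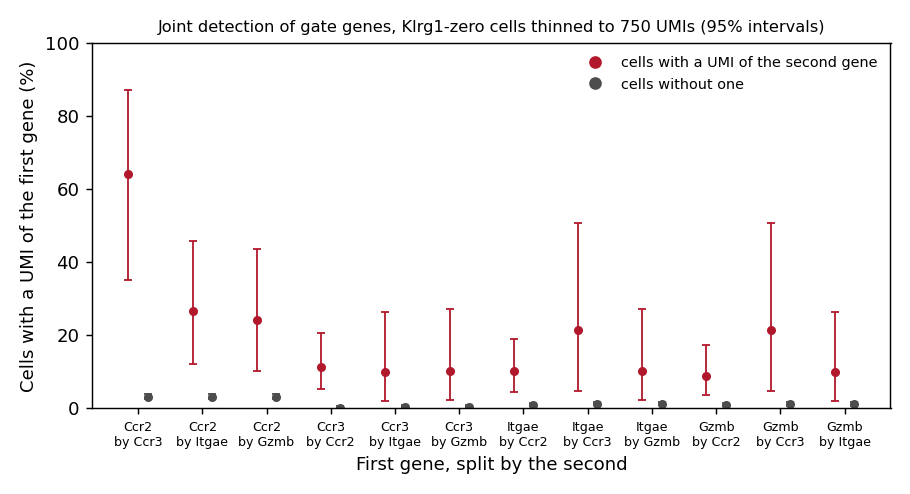
Share of Klrg1-zero PPARg-negative cells (%, y axis) with a UMI of the first gene, for cells with a UMI of the second gene (red) and without (grey), all thinned to 750 UMIs; bars are exact 95% intervals. Ccr2 stood at 64.3% in cells with Ccr3 and 3.11% in cells without it.

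The ribosomal protein share split the gate-positive cells. Ribosomal protein mRNAs are among the most abundant in resting lymphocytes, and their median share was 16.7% of UMIs in gate-positive cells and 35.4% in gate-negative cells. Under 20% lay 125 of the 227 gate-positive cells (55.1%, 48.3 to 61.7%), against 403 of 2265 gate-negative cells (17.8%, 16.2 to 19.4%). Cells below this line are called ribosome-poor and the rest ribosome-rich. The 10 to 15% bin alone held 80 gate-positive cells, whereas 10 gate-positive cells lay between 18 and 22%, so few stood near the line. The median mitochondrial share was 3.55% against 2.45%, and that of the nuclear RNA Malat1 4.53% against 2.74%. These moved with the ribosomal class, since ribosome-poor gate-positive cells had 5.53% mitochondrial UMIs and ribosome-rich ones 2.26%. The number of gate UMIs moved with it too: 37.9% of cells with 1 gate UMI were ribosome-poor, 79.5% of those with 2 and 78.4% of those with 3 or more. The part of the ribosomal class and of the mitochondrial share in the differences over all cells was not tested, and the 2 classes are therefore given apart.

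**Figure D2:**
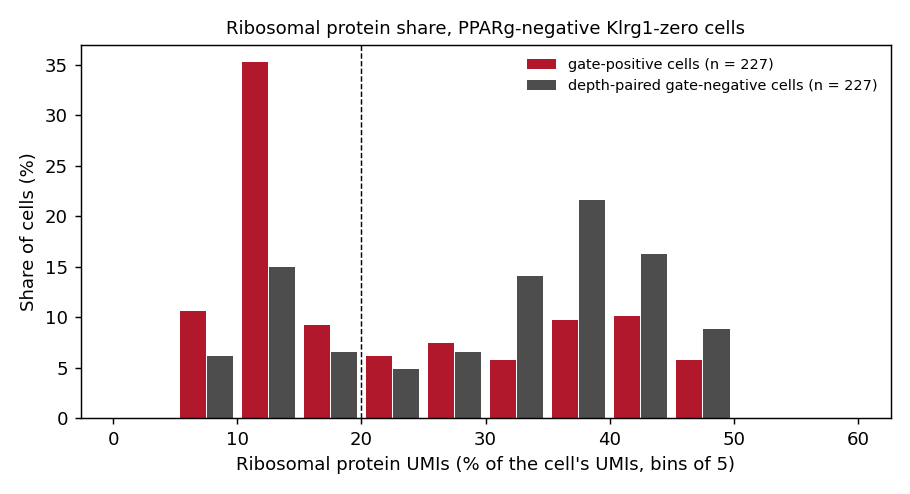
Ribosomal protein share of each cell's UMIs (x axis, bins of 5 percentage points) against the share of cells (%, y axis), for gate-positive cells (red) and their depth-paired gate-negative cells (grey); the dashed line marks 20%. Gate-positive cells peaked at 10 to 15% (35.2% of cells) and the paired cells at 35 to 40% (21.6%).

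To describe the genes that went with the gate, each of the 227 cells was paired with the gate-negative cell nearest in total UMIs, and UMIs were summed over the paired cells and given per 1000000 UMIs (CPM). A gene was called where the groups differed 1.5-fold or more and the 95% interval of the ratio excluded 1, among genes with 30 or more UMIs over both groups. Of 3500 genes outside the gate, 294 (8.4%) were called higher and 66 (1.89%) lower. Over this many genes some pass a 95% interval by counting error, and with a wider interval of 0.1% error 98 and 11 passed. The median log2 ratio was 0.11, and relative to that median 199 were higher and 128 lower. The paired gate-negative cells were ribosome-poor in 27.8% of cases against 55.1%, and all 83 measured ribosomal protein genes had a ratio below 1, with a median log2 ratio of -0.29 and none called. The summed ratio was 2.14 (1.51 to 3.05) for the monocyte list, which was Cst3 but for 1 UMI, 2 (1.04 to 4) for the CD8 and gamma delta list on 30 against 15 UMIs and 2.31 (1.17 to 4.82) for the helper T cell list on 30 against 13 UMIs. The part of these cells in the values below was not tested.

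The 12 genes highest in gate-positive cells over all cells by interval bound included the calcium-binding protein genes S100a6 and S100a4, the chemokine receptor genes Cxcr3 and Ccr4 and the transcription factor gene Maf. Ly6a, which encodes the surface protein Sca-1, had 598 UMIs in 159 of 227 gate-positive cells and 200 UMIs in 91 paired cells, a ratio of 2.99 (2.54 to 3.52). S100a6 had 384 UMIs against 78, a ratio of 4.92 (3.85 to 6.36), and was in 111 cells against 39. Both were thus found in more gate-positive than paired cells, and Ly6a in most gate-positive cells. Maf, a transcription factor of effector and interleukin 10-producing T cells, had 131 UMIs in 77 cells against 39 in 29 cells (ratio 3.36, 2.33 to 4.93). Cxcr3, the receptor for interferon-induced chemokines, stood at 184 against 45.6 CPM (4.05, 2.46 to 6.97). Ccr4, the receptor for CCL17 and CCL22, stood at 97.9 against 22.8 CPM (4.3, 2.13 to 9.59). These receptors were not part of the rule. Fgl2, a secreted suppressive mediator of Tregs, had 47 UMIs against 7 (6.71, 3.01 to 17.6), and Lgmn, an endosomal protease, 45 against 7 (6.42, 2.88 to 16.9). S100a4 (3.47, 2.49 to 4.9), the kinase gene Matk (3.58, 2.13 to 6.3) and the nuclear receptor gene Rora (4, 2.09 to 8.27) were also among the 12 highest. Ccl5 and Plac8 were concentrated in few cells: Ccl5 had 82 UMIs in 21 cells, with 19 in 1 cell, and Plac8 had 46 UMIs in 15 cells, with 18 in 1 cell. Both were called with the cell highest for the gene left out of each group.

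The 12 lowest genes by interval bound included Id3 and the resting list members Satb1, Tcf7 and Bcl2. Id3, which restrains E-protein transcription factors, had 57 UMIs in 32 cells against 133 in 70 paired cells, 2.33-fold lower (1.7 to 3.24). Satb1, a chromatin organizer, was 1.96-fold lower (1.36 to 2.86) and Tcf7, which encodes the transcription factor TCF-1, 2.03-fold lower (1.34 to 3.14). Bcl2, the survival factor, stood at 316 against 503 CPM, 1.59-fold lower (1.28 to 1.98), and lost its call with 5% or less mitochondrial UMIs (0.857) and with partners of the same ribosomal class (0.726). Cd81, a tetraspanin, was 1.89-fold lower (1.34 to 2.69), and Gpr83, a receptor of resting Tregs, 1.86-fold lower (1.31 to 2.67). The endoplasmic reticulum protein gene Erp29 (2.41-fold), Nrip1 (2.04-fold) and the mitochondrial protein genes Ndufb3 and Chchd10 (each 1.89-fold) were called lower as well. The histone gene H2afz was 1.51-fold lower (1.3 to 1.75) and lost its call without the highest cell of each group. Tmsb10, although among the 12 lowest by its interval, was 1.31-fold lower and did not reach the fold.

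Of the effector Treg list, 5 of 11 measured members were called higher and 1 lower, beside 8.4% and 1.89% of all genes. Those higher were Maf, Icos (205 against 86 UMIs; ratio 2.38, 1.84 to 3.1), Tnfrsf1b (3.6, 2 to 6.86), Glrx (3.2, 2.02 to 5.23) and the adhesion receptor gene Cd44 (2.71, 1.44 to 5.42). Cd83 was 3.09-fold lower (1.53 to 6.77), and Tnfrsf9, Tnfrsf4, Pdcd1, Batf and Id2 were not called. The UMIs of the whole list summed to a ratio of 1.65 (1.5 to 1.82). Of the resting Treg list, 6 of 15 were called lower (Satb1, Tcf7, Ly6c1, Igfbp4, Bcl2 and Nsg2) and 1 higher, the interleukin 7 receptor gene Il7r (1.86, 1.37 to 2.55). The homing gene Ccr7 (0.73, 0.488 to 1.08) was not called, and the list summed to 0.805 (0.747 to 0.867). Gate-positive cells thus differed from gate-negative ones in part of each program.

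Integrin, S100 and galectin genes were also among those called, beside 8.4% of all genes called higher and 1.89% lower. In the integrin and adhesion list 6 of 10 were higher and 0 lower, among them Itgb7, which encodes the partner chain of the Itgae product, at 396 against 218 UMIs (1.82, 1.53 to 2.15). Itgb1 (2.69, 1.77 to 4.17), Itgb2 (1.66, 1.25 to 2.22) and the selectin ligand gene Selplg (1.68, 1.42 to 2) were the others with Itgal and Cd44. In the S100, galectin and annexin list 6 of 11 were higher and 0 lower, including S100a11 (2.22, 1.71 to 2.9), S100a10 (1.5, 1.32 to 1.72) and Lgals1, which encodes galectin 1 (1.94, 1.61 to 2.35). Of the Treg identity list, Ctla4 (1.75, 1.3 to 2.35; 0.99 with partners of the same ribosomal class) and Capg were higher and Gpr83 lower among 13, while Ikzf2 (0.994, 0.866 to 1.14) and Il2ra (1.14, 0.843 to 1.55) were not called. Among the receptors of the common gamma chain, Il2rg (1.66, 1.36 to 2.02) and Il7r were called among 6.

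Within the ribosome-poor class the effector list was level. Here 123 of 125 gate-positive cells found a partner within 10% of their depth, and 70 of 1532 genes (4.57%) were called higher and 46 (3%) lower. Of the effector Treg list 2 of 10 were called, Maf and Id2, and the list summed to 0.984 (0.883 to 1.1). Icos stood at 992 against 829 CPM (1.2, 0.931 to 1.54), Tnfrsf1b at 231 against 274 CPM and Cd44 at 161 against 162 CPM. Of the integrin and adhesion list 0 of 9 were called, although 6 lay above 1 and the list summed to 1.23 (1.11 to 1.36). The effector label therefore described these cells against all others, and against ribosome-poor gate-negative cells the effector list did not differ beyond counting error. When the comparison over all cells was repeated with partners of the same ribosomal class, 108 genes were higher, 96 of which were among the 294, and 78 were lower, and the effector list summed to 1.09 (0.998 to 1.19).

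What remained in the ribosome-poor class was a smaller set led by Ly6a. It had 375 UMIs in 91 of 123 gate-positive cells and 154 in 55 paired cells, a ratio of 2.42 (2 to 2.94). Socs3, an inhibitor of cytokine signalling, had 49 UMIs in 33 cells against 14 in 14 cells (3.48, 1.89 to 6.83), and Il7r had 78 against 30 (2.59, 1.68 to 4.08). Il7r encodes a cytokine receptor chain that signals through Janus kinases. Maf was at 678 against 302 CPM (2.24, 1.55 to 3.29), and Rora at 37 against 9 UMIs (4.09, 1.94 to 9.63). Itm2b, a membrane protein gene, was in 117 gate-positive and 109 paired cells, with 744 against 391 UMIs (1.89, 1.67 to 2.14). Matk (2.98, 1.66 to 5.63), Cldnd1 (2.7, 1.61 to 4.69), the interferon-induced GTPase gene Ifi47 (2.6, 1.48 to 4.75) and Cnp (2.18, 1.35 to 3.61) were among the 10 highest. Actg1, gamma actin, was called at 1.53 (1.35 to 1.73) and lost its call without the highest cell of each group. Of its 669 UMIs, 53 lay in 1 cell. With Ccr2 left out of the rule, the 57 ribosome-poor cells with Ccr2 alone joined the comparison pool. Of the 70 genes higher in this class 52 were then still measured, and 20 of them were called higher. Ly6a (1.45, 1.17 to 1.8), Maf (1.26, 0.809 to 1.97), Vim and Socs3 lost their calls, as did Cd81 among the lower genes. These lost calls are thus not a comparison with gate-negative cells only.

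Bcl2 was the lowest gene of the ribosome-poor class by interval bound. It had 20 UMIs in 10 of 123 gate-positive cells and 80 UMIs in 37 paired cells, 4.02-fold lower (2.44 to 6.94). Bcl2 was called lower under each of the 17 alternatives that measured it and made calls. Those that changed only the count minimum could not alter its call. At 750 UMIs a Bcl2 UMI was found in 6.42% (2.62 to 12.8%) of ribosome-poor gate-positive cells and in 29.8% (24 to 36.2%) of ribosome-poor gate-negative cells. Unthinned, these shares were 8% and 36.5%. Its relative Bcl2a1b was 2.79-fold lower (1.26 to 6.8), and Mcl1 and Bax, the other measured members of the BCL2 family, were not called. Id3 was again low, with 7 UMIs against 37, 5.32-fold lower (2.34 to 14.1). Izumo1r, the folate receptor 4 gene of Tregs, had 166 against 273 UMIs, 1.65-fold lower (1.36 to 2.02). Zfp36l1 (2.05-fold), Cd81 (2.17-fold), Ndufb11 (2.01-fold), Trim59 (2.12-fold), Stk38 (1.93-fold) and Slc50a1 (2.06-fold) were called lower, while Cd3d (1.39-fold) and Lck (1.4-fold), genes of T cell receptor signalling, did not reach the fold. The Treg identity list summed to 0.787 (0.721 to 0.859), with Izumo1r and Gpr83 lower and Capg higher among 10. The paired ribosome-poor gate-negative cells had more mitochondrial UMIs (median 7.34% against 5.62%), and the part of that in these values was not tested.

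**Figure D3:**
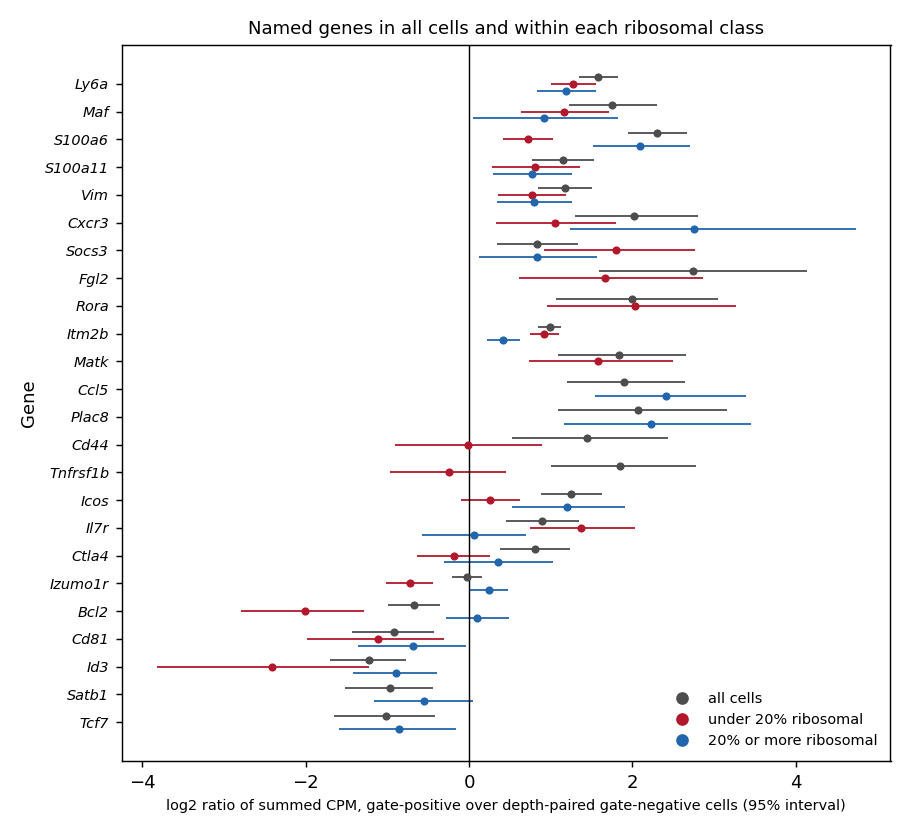
log2 ratio of summed CPM, gate-positive over depth-paired gate-negative cells (x axis), for 24 genes (y axis), over all cells (grey), within the ribosome-poor class (red) and within the ribosome-rich class (blue); bars are 95% intervals, and points of genes under 30 UMIs are left out. Ly6a lay above 0 in all 3 comparisons, whereas Cd44 and Tnfrsf1b lay near 0 in ribosome-poor cells and Bcl2 near 0 in ribosome-rich cells.

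In the ribosome-rich class, 102 pairs gave 69 of 2256 genes higher (3.06%) and 36 lower (1.6%). Ccl5, a chemokine of effector lymphocytes, led with 69 UMIs in 14 cells against 13 in 4 cells (5.3, 2.91 to 10.5). S100a6 followed at 132 against 31 UMIs (4.25, 2.86 to 6.51), then Plac8 (4.66, 2.24 to 10.9), Ly6a (2.28, 1.78 to 2.94), the mitochondrial ribosome gene Mrpl54 (3.33, 1.71 to 6.97) and S100a4 (2.51, 1.64 to 3.94). The effector list summed to 1.31 (1.13 to 1.52), with Icos (2.29, 1.44 to 3.75), Maf (1.89, 1.04 to 3.55) and Glrx (3, 1.52 to 6.33) higher of 6 measured. In this class the list was thus above the paired cells. Id3 was 1.86-fold lower (1.31 to 2.68), H2afz 1.52-fold, Lamp1 1.8-fold, Ran 1.61-fold, Pole4 1.75-fold and Tsn 1.78-fold lower. Bcl2 stood at 409 against 382 CPM (1.07, 0.82 to 1.4), and Il7r was likewise level (1.05, 0.673 to 1.63). With 2 or more gate UMIs required the Bcl2 ratio was 0.423 (0.189 to 0.886), the direction of the ribosome-poor cells. That value rested on 20 pairs in place of 102, and the 82 ribosome-rich cells with 1 gate UMI joined its comparison pool. These differences between the classes were not tested.

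Both classes shared a core of 13 called genes outside the gate. Higher in each were Ly6a, Maf, S100a6, S100a11, Cxcr3, Socs3, Socs2, Vim, Serinc3 and the immunoproteasome gene Psmb9, 10 in all. Lower in each were Id3, Cd81 and Ttc14, and 0 genes were called in opposite directions. Of all measured genes, 4.57% were called higher and 3% lower in ribosome-poor cells, and 3.06% and 1.6% in ribosome-rich cells. The overlap that these shares alone would give is not stated here, so the count of 13 is a description. With the wider interval 4 of the 13, Ly6a, S100a6, Vim and Id3, were called in both classes. In ribosome-rich cells Maf and Socs3 also lost their calls without the marked doublets. In ribosome-poor cells Cxcr3 lost its call with 2 or more gate UMIs, with a ribosomal line at 15% and without Itgae in the rule, Socs3 at that line, Maf with 5% or less mitochondrial UMIs and Cd81 with 500 or more genes per cell. Vim, which encodes the intermediate filament vimentin, had nearly equal ratios, 1.7 (1.28 to 2.27) in ribosome-poor and 1.74 (1.27 to 2.39) in ribosome-rich cells. Serinc3, Socs2, Psmb9 and Ttc14 were named here after their values were seen.

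The PPARg-low library, whose cells the rule did not use, allowed the comparison to be repeated in other cells, where a minority of the calls recurred. Its 106 cells passing the same conditions were paired by depth with gate-negative cells of that library, a comparison added after the first values were known. These cells held 182987 UMIs, against 439370 in the 227 PPARg-negative ones, and fewer UMIs give wider intervals. The part of this in the calls that did not recur was not tested. Of 1855 genes there, 86 (4.64%) were higher and 29 (1.56%) lower, and in ribosome-poor cells 48 of 984 (4.88%) were higher and 24 (2.44%) lower. Of the 294 genes higher in PPARg-negative cells, 192 were measured, of which 131 (68.2%) lay above 1 and 26 (13.5%) were called higher. Over all 1840 genes measured in both, 51.2% lay above 1 and 4.62% were called. For the ribosome-poor class, 32 of 46 (69.6%) lay above 1 and 11 (23.9%) were called, against 48.5% and 5.05% of all genes. Over all cells Cd4, higher in the PPARg-negative library, was called lower in the PPARg-low one (0.648, 0.422 to 0.986). Of the genes called lower, 21 of 30 (70%) lay below 1 over all cells, against 48.8% of all genes, and 3 (Cd81, Id3 and the ribosomal pseudogene Rps26-ps1) were called lower again, 10% against 1.58%. In ribosome-poor cells 16 of 25 (64%) lay below 1, against 51.5%, and 2 (Cd81 and Zfp36l1) were called again, 8% against 2.42%, while Aldoa was called higher (2.26, 1.29 to 4.11). These genes were named after their values were seen. The effector list summed to 1.1 (1.02 to 1.2) over all PPARg-low cells, against 1.65 in the PPARg-negative library, and to 0.791 (0.721 to 0.866) in ribosome-poor ones, against 0.984.

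Ly6a, Maf and Vim were called in both classes of PPARg-negative cells and again in the PPARg-low library. Ly6a had 231 against 101 UMIs there (2.28, 1.8 to 2.91) and 1.69 (1.29 to 2.21) in ribosome-poor cells. Maf stood at 1.92 (1.3 to 2.87) and 1.7 (1.12 to 2.62), and Vim at 2.19 (1.65 to 2.92) and 3.02 (2.05 to 4.57). S100a6 was called over all cells (1.87, 1.55 to 2.27) and not in ribosome-poor ones (1.26, 1 to 1.58). Cd81 was lower in both, 1.68-fold (1.18 to 2.41) and 2.23-fold (1.44 to 3.53). Other leading genes did not recur as calls: Socs3 had 22 UMIs in each group, Matk 21 in each, Il7r was at 0.953 (0.609 to 1.49) in ribosome-poor cells, and S100a4 had 83 against 102 UMIs. Bcl2 was 1.57-fold lower (0.905 to 2.77) over all cells and 1.92-fold lower (0.917 to 4.23) in ribosome-poor ones, on 59 and 35 UMIs, and was not called.

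Klrg1-positive cells of the same library carried a gate UMI in 79 of 141 cases, and none was required of them here. Of the gate-positive cells, 115 could be paired with them by depth within a ribosomal class. Of 2053 genes, 39 (1.9%) were higher in gate-positive cells and 78 (3.8%) lower, and 4 and 12 passed with the wider interval. Of the 13 core genes, 9 were not called, 3 were lower (S100a11, Cxcr3 and Cd81, the last 1.75-fold, 1.1 to 2.82) and 1 was higher (Socs3). Ly6a stood at 1559 against 1374 CPM (0.966 to 1.33 as a ratio) and Maf at 384 against 374 CPM (0.745 to 1.42), while S100a6 was 1.45-fold lower (1.22 to 1.71) and did not reach the fold. Bcl2, outside the core, stood at 238 against 248 CPM (0.64 to 1.44). A gene not called is not shown to be alike in these cells.

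The effector list was lower in gate-positive than in Klrg1-positive cells, at a summed ratio of 0.687 (0.621 to 0.759), with 4 of 10 members called lower and 0 higher. Pdcd1, which encodes the inhibitory receptor PD-1, had 9 against 23 UMIs, 2.71-fold lower (1.21 to 6.67). Glrx was 1.83-fold lower (1.28 to 2.64), and Tnfrsf4, which encodes the costimulatory receptor OX40, 1.6-fold lower (1.33 to 1.94). Cd74, the invariant chain of class II antigen presentation, was the lowest gene at 36 against 115 UMIs, 3.39-fold lower (2.32 to 5.08). Ikzf2, which encodes the Treg factor Helios, was in 61 gate-positive cells with 209 UMIs and in 105 Klrg1-positive cells with 404 UMIs, 2.05-fold lower (1.73 to 2.44). Klrg1-positive cells thus carried more of the effector list and of Helios. S100a4 (1.6-fold), S100a11 (1.58-fold), Cxcr3 (1.67-fold), Itm2c (1.8-fold), Ccl5 (1.88-fold), Dnajc7 (2.81-fold) and Erp44 (2.5-fold) were lower as well. Crip1 was 1.52-fold lower and lost its call without the highest cell of each group. Higher in gate-positive cells were the nucleoside kinase gene Nme1 (52 against 20 UMIs; 2.45, 1.44 to 4.33), the ATP synthase gene Atp5b (1.64, 1.23 to 2.2), Cldnd1 (1.88, 1.18 to 3.08) and Socs3 (1.97, 1.15 to 3.49). Plac8 had 32 UMIs against 1, a ratio of 30.1 with a counting interval from 5.03 to 1.23e+03, and 18 of the 32 lay in 1 cell. The resting list was level at 1.06 (0.94 to 1.19). CD8 and gamma delta markers stood at 4.71 (1.33 to 25.4) in gate-positive over Klrg1-positive cells, and their part was not tested.

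Against gate-positive cells of the PPARg-low library, the effector list was lower and the resting list higher in PPARg-negative cells. The rule found 106 cells there, and 102 pairs of the same ribosomal class were formed, leaving 125 gate-positive PPARg-negative cells unpaired. Of 1732 genes, 57 (3.29%) were higher in PPARg-negative cells and 109 (6.29%) lower. With the wider interval these counts were 16 and 35. The effector list was lower in PPARg-negative cells at 0.475 (0.429 to 0.526), with 8 of 12 members called. The resting list was higher at 2.11 (1.82 to 2.47), with 6 of 8 called and 0 lower. Ribosomal protein genes, 18.97% of UMIs in the PPARg-low cells and 24.07% in the PPARg-negative ones, moved with these lists although the pairs shared a class, and their part was not tested.

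Resting genes higher in the PPARg-negative cells were led by Klf2, a factor that maintains lymphoid egress and recirculation, with 146 UMIs in 57 cells against 55 in 31 cells (2.46, 1.8 to 3.42). Bcl2 had 43 against 14 UMIs (2.85, 1.53 to 5.64). The egress receptor gene S1pr1 (1.91, 1.02 to 3.73), Foxp1 (2.25, 1.33 to 3.95) and Ly6c1 (6.68, 2.61 to 21.8) were also among the 6. Ms4a6b (2.07, 1.63 to 2.66), Ms4a4b (1.78, 1.49 to 2.12), Hnrnpa1 (2.73, 1.55 to 5.05) and Emg1 (2.11, 1.31 to 3.48) were the other leading genes outside that list.

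The costimulatory receptor gene Tnfrsf9 had 56 UMIs in 26 cells against 169 in 51 cells, 3.25-fold lower (2.39 to 4.48). Tnfrsf4 was 2.42-fold (2.01 to 2.92), Tnfrsf18, which encodes GITR, 2.49-fold (2.01 to 3.11) and Pdcd1 10.6-fold lower (4.23 to 34). Cd83 was 8.8-fold lower (3.77 to 25.1), Id2 4.11-fold (2.08 to 8.86), Cst7 3.84-fold (2.17 to 7.16) and Ikzf2 2.4-fold lower (1.99 to 2.9). Each of these was found in 25 to 93 of the 102 PPARg-low cells. Ccl5 was 19.1-fold lower (10.4 to 38.9), but 127 of its 195 UMIs came from 1 PPARg-low cell, as did 91 of 104 Penk UMIs and 36 of 73 Nkg7 UMIs. Each stayed called without the highest cell of each library, whereas Srgn and Ctla4 lost their calls. Maf (72 against 73 UMIs), Icos (109 against 107) and Ly6a (1.29, 1.08 to 1.54) were not called. Among the gate genes themselves, Ccr2 had 133 against 74 UMIs, Itgae 43 against 47, Ccr3 15 against 42 and Gzmb 54 against 119. These values chose the cells in both libraries and are a description.

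**Figure D4:**
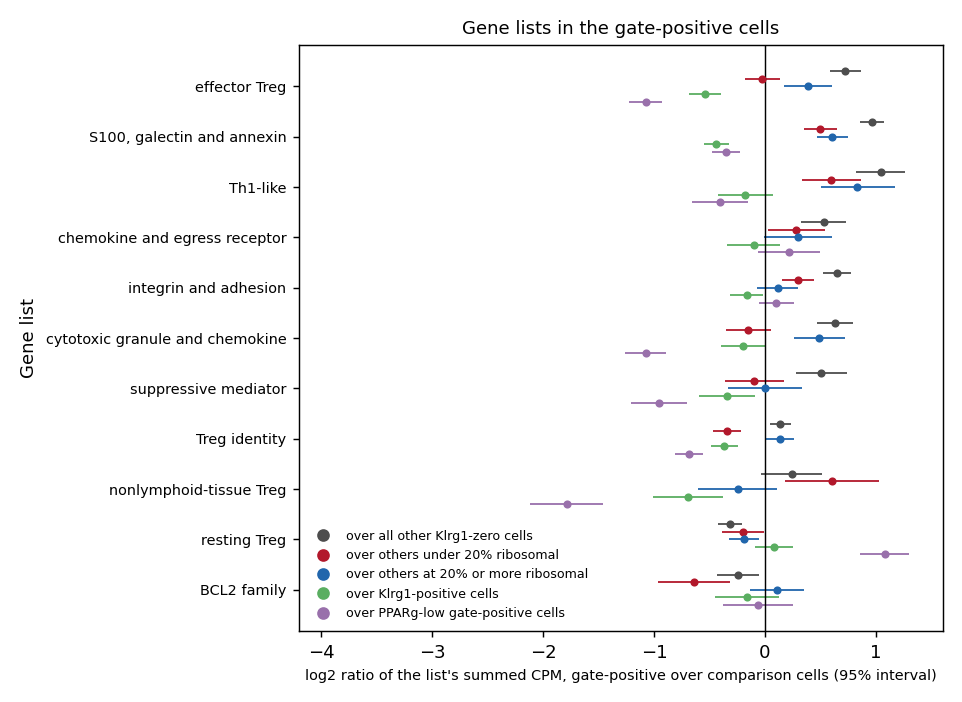
log2 ratio of each list's summed CPM, gate-positive PPARg-negative cells over the comparison cells (x axis), for 11 gene lists (y axis) in 5 comparisons (colours); bars are 95% intervals from counts. The effector list lay at a ratio of 1.65 over all gate-negative cells, 0.984 within the ribosome-poor class and 0.475 over PPARg-low gate-positive cells.

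The gate-positive cells differed among themselves by the gate gene they carried. Cells with Ccr2 as the sole gate gene were ribosome-poor in 58.8% of cases (48.3 to 68.7%), those with Itgae alone in 42.6% (28.3 to 57.8%) and those with Gzmb alone in 21.6% (9.83 to 38.2%). Cells with 2 or more gate genes were ribosome-poor in 35 of 39 cases (89.7%, 75.8 to 97.1%). At 750 UMIs Maf was found in 33.3% (23.6 to 44.3%) of Ccr2-only cells, 14% (5.3 to 27.9%) of Itgae-only cells, 10.8% (3.03 to 25.4%) of Gzmb-only cells and 4.53% (3.67 to 5.52%) of cells with no gate UMI. Ly6a followed the same order, at 64.4% of Ccr2-only cells, 32.6% and 32.4% of the Itgae-only and Gzmb-only cells and 22.8% of the rest. Both were thus most frequent in Ccr2-only cells among the cells with a sole gate gene shown. Icos, an effector costimulatory receptor gene, was in 34.5% (24.6 to 45.4%) of Ccr2-only cells and 55.3% (38.3 to 71.4%) of cells with 2 or more gate genes, against 7.83% of cells with none. Bcl2 and Id3 were each found in 0 of 38 cells with 2 or more gate genes, which allows a share with a UMI of up to 7.89%, against 27.7% and 15.5% of cells with no gate UMI.

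**Figure D5:**
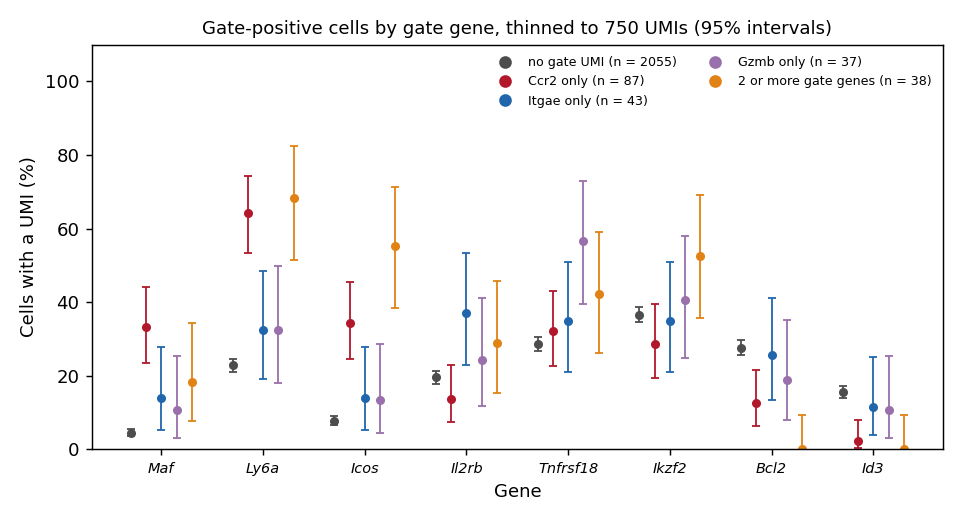
Share of cells with a UMI (%, y axis) of 8 genes (x axis) after thinning to 750 UMIs, for cells with no gate UMI, Ccr2 only, Itgae only, Gzmb only and 2 or more gate genes (colours); bars are exact 95% intervals. Maf was highest in Ccr2-only cells (33.3%) and Bcl2 stood at 0 of 38 cells with 2 or more gate genes.

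Within the ribosome-poor class some of these differences stayed. By the rule, gate-positive cells without the gate gene named carried another gate gene, so each split below is between gate genes. It is not a comparison with gate-negative cells, and the sums were not paired by depth. Gate-positive cells with Ccr2 had 108 Maf UMIs and those without 23, a CPM ratio of 4.37 (2.77 to 7.19) that was 2.03 (1.16 to 3.79) in ribosome-poor cells. Ly6a was 2.99 (2.47 to 3.64) overall and 1.77 (1.35 to 2.34) in ribosome-poor cells, and Itm2b 2.65 (2.33 to 3.02) and 1.98 (1.62 to 2.42). Icos was 3.31 (2.36 to 4.72) over all and 1.19 (0.802 to 1.8) in ribosome-poor cells, and S100a4 3.06 (2.11 to 4.53) and 1.06 (0.645 to 1.81). Bcl2 was 2.17-fold lower (1.51 to 3.16) in cells with Ccr2. Compared with the other gate-positive cells, those with Itgae had more Ikzf2 (1.67, 1.36 to 2.03; 1.76 in ribosome-poor cells), and 1.51-fold less Ly6a (1.25 to 1.85). Cells with Gzmb had more Il2rb, the interleukin 2 receptor beta chain gene (1.97, 1.4 to 2.77; 2.29 in ribosome-poor cells), Tnfrsf4 (1.66, 1.32 to 2.07) and Tnfrsf18 (1.61, 1.26 to 2.05), and less Itgal (3.67-fold, 1.58 to 10.5), Nrp1 (3.08-fold, 1.39 to 8.05) and Cd28 (2.27-fold, 1.56 to 3.37). In ribosome-poor cells the ratios were 0.276 (0.0541 to 0.882) for Nrp1 and 0.579 (0.353 to 0.91) for Cd28. Itgal stood there at 0.38 (0.0974 to 1.07), an interval that held 1. In cells with Ccr3, Hmgb2 had 44 UMIs of which 28 lay in 1 cell, and Lgals1 71 of which 33 lay in 1 cell.

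The number of gate UMIs moved with the effector list over all cells and little within the ribosome-poor class. Cells with 1, 2 and 3 or more gate UMIs held on average 1.76, 2.92 and 3.7 effector list UMIs per 750, and cells with none 1.02. In ribosome-poor cells the averages were 3.45, 3.57 and 3.95, and 3.5 in ribosome-poor cells with no gate UMI. The S100, galectin and annexin list differed in both, at 3.25, 4.7 and 5.44 UMIs in ribosome-poor cells with 1, 2 and 3 or more gate UMIs against 2.5 in those with none. The Treg identity list was lower in the ribosome-poor gate-positive cells, at 5.58, 4.3 and 4.67 UMIs against 6.4 in those with no gate UMI.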

How the data were processed

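The authors deposited 1 matrix per library of unnormalized UMI counts, with genes in rows and barcodes in columns. Cell Ranger 2.1.0 and mm10 are named for them in the submitters' processing notes. No annotation or cell calling method was stated in the labels used here. Libraries were Chromium 3′ version 2, per the labels' protocols, and held 6114403 UMIs (PPARg-negative) and 3227201 (PPARg-low). The second library is PPARg-low in its sample label while its file tag reads as positive, and the label was followed.

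Barcodes over 10% mitochondrial UMIs were removed (269 of 2902 and 373 of 1992). Doublets were marked with Scrublet in scanpy 1.11.5 and kept. Each gate-positive cell was paired, deepest first, with the unused comparison cell nearest in total UMIs, within 10%. Summed counts were compared as CPM with an exact conditional binomial 95% interval (numpy 2.4.6, scipy 1.17.1, pandas 2.3.3), called at 1.5-fold among genes with 30 or more UMIs. Intervals are per gene and not adjusted for the number of genes. To leave out the highest cell, that gene's UMIs in its top cell were dropped from each group, with group totals unchanged. Shares used cells thinned to 750 UMIs (seed 1) with Clopper-Pearson intervals, and a count of 0 was given a limit of 3 counts. With 1 library a group no test between groups was made, and intervals cover counting error within these libraries only. PPARg-low cells were compared with PPARg-negative cells as libraries.

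Genes named were the 12 highest and 12 lowest by interval bound over all cells, the leading genes of the other comparisons, and up to 5 members of each list, with members called in opposite directions; genes split by gate gene, Serinc3, Socs2, Psmb9, Ttc14 and those named for the repeat in PPARg-low cells were named after their values were seen. Some list members and leading genes are not reported here by name. The methods were tested on simulated data. The members, lists and rule were chosen with earlier results of these data known. Coordinates are from GENCODE M21, in which 28339 of 28692 gene identifiers were found. Alternatives covered the filters, pairing, thinning, gate genes, scaling and interval.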

Additional observations from a re-analysis of the deposited data

How the results depend on the processing

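Of 220 counts and list ratios under an alternative, 155 stayed within 1.5 times or within their interval and 65 moved. No list ratio whose interval excluded 1 in the main comparison reversed. Counts could not be labelled reversed, and a list ratio whose interval held 1 could cross 1 without that label. Of 5796 values of named genes under alternatives that make calls, 5265 kept their call or absence of one, 299 lost a call, 223 gained one and 9 reversed. A called gene was labelled reversed when its ratio crossed 1, whether or not it was called there. An uncalled gene was labelled reversed when it gained a call on the other side of 1. A minimum of 100 UMIs, or none, changes no ratio or interval, so no call could change under these settings. They gave 104 and 139 of the values kept over all cells and 60 and 111 in ribosome-poor cells. The alternatives counted below include them. The mean of each cell's CPM makes no calls, and 7 of 250 values moved outside their interval under it. Over all cells Ly6a (ratio 2.16 to 3.73), Maf, S100a6, Cxcr3, Id3 and Vim kept their direction and call under the 17 alternatives that make calls, and in ribosome-poor cells so did S100a6, Il7r and Izumo1r under 18 and Bcl2 (0.121 to 0.342) under 17. The cause of the moves below was not tested, except that a higher count minimum or a wider interval calls fewer genes and a smaller set of cells measures fewer.

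Whenever the gate was narrowed, gate-positive cells that no longer passed joined the pool of gate-negative comparison cells. Over all cells, requiring 2 or more gate UMIs moved the 132 cells with 1 gate UMI there. It gave 108 genes lower, an effector list ratio of 1.95 and a resting list ratio of 0.678. Reading the gate and Klrg1 at 750 UMIs gave ratios of 2.04 and 0.731. Without pairing, 774 genes were higher and the effector ratio was 2.16. Thinned to 750 UMIs without pairing, these were 543 higher, 133 lower and 2.39, and Mrpl54 (0.797), Lamp1 (1.23) and Vgll4 (1.58) reversed. A minimum of 100 UMIs left 117 higher and 21 lower, and no minimum 449 and 114. Relative to the median of all genes, 128 were lower and the resting ratio was 0.746. Without Ccr2 in the rule, 171 were higher and 34 lower with an effector ratio of 2.02, and without the Klrg1 condition 601 and 120 with 1.85. With partners of the same ribosomal class, 108 were higher, the effector ratio was 1.09 and the resting ratio 0.876, and Cd74 (0.984) and Ctla4 (0.99) reversed. This alternative, the wider interval and those of the last paragraph were chosen after seeing the data.

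In ribosome-poor cells, 5% or less mitochondrial UMIs gave 32 higher and 24 lower, and Gapdh reversed (0.551). Without pairing these were 167 and 114, with an effector ratio of 1.11 and a resting ratio of 0.694, and thinned without pairing the resting ratio was 0.729. A minimum of 100 UMIs gave 19 and 6, and no minimum 136 and 138. A ribosomal line at 25% gave 72 lower. Without Ccr2 in the rule, 34 were higher and 22 lower, the resting ratio was 0.997 and Zbp1 reversed (0.938). Without the Klrg1 condition the counts were 119 and 93.

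With the interval of 0.1% error in place of 5%, the counts higher and lower were 98 and 11 over all cells, 20 and 4 in ribosome-poor cells, 19 and 2 in ribosome-rich cells, 16 and 35 against PPARg-low cells and 4 and 12 against Klrg1-positive cells. In ribosome-rich cells, requiring 2 or more gate UMIs left 20 pairs. It gave 45 higher, 16 lower, an effector ratio of 2.3 and a resting ratio of 0.656, with Bcl2 reversed (0.423). Against PPARg-low cells it was required of the PPARg-negative cells only, and the PPARg-low cells still passed with 1 gate UMI. That uneven gate gave 69 lower and ratios of 0.575 and 1.75, with S100a4 reversed (1.78). It is therefore not a like-for-like check of the difference between the libraries. Against Klrg1-positive cells, of which no gate UMI was required, it gave 38 lower and ratios of 0.889 and 0.856. Per thinned cell over all cells, the effector ratio was 2.13 at 500 UMIs and 2.16 without thinning, against 2.39 at 750, and the resting ratio of ribosome-poor cells was 0.909 at 1000 UMIs. Depth limits single genes: 30 UMIs over both groups is the least a call can rest on. No paired analysis was possible because each label is 1 library.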
